A study of Mus musculus with 8 samples.

Results

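Wild-type mouse embryonic stem cells (mESCs) were compared with the pancreatic islet-like endocrine cells (PILECs) that were derived from them in culture, on 4 of the 8 arrays of the series. Embryonic stem cells are taken from the inner cell mass of the blastocyst, and a small circuit of transcription factors built around Oct4 (encoded by Pou5f1), Sox2 and Nanog keeps them dividing and able to form every tissue of the embryo. Endocrine cells of the pancreas descend from definitive endoderm through Pdx1-positive progenitors that pass through a Neurog3-positive stage, and mature islets are known for insulin, glucagon, somatostatin and pancreatic polypeptide. Neurons and islet endocrine cells share much of the machinery for regulated secretion and several transcription factors, so that part of an endocrine gene set is also a neuronal one.

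The wild-type mESCs were of the line TC1, of 129S6/SvEvTac background, grown with leukaemia inhibitory factor, and the wild-type PILECs were the same line after embryoid bodies formed without that factor, a stage in serum-free insulin, transferrin and selenium medium, expansion with N2, B27 and fibroblast growth factor, and a last stage in which the factor was replaced by nicotinamide. The other line of the series, 3.2N, carries inactivated copies of Men1, the gene for menin, and was taken through the same steps. Each genotype was 1 cell line, and each of the 4 groups was 2 independent cultures with 1 array each. P-values therefore measure the spread between cultures of a line, pooled over the 8 arrays of both lines. What follows is a description of the TC1 line. The values are log2 signals of Affymetrix mouse whole-genome arrays as deposited, and 18193 genes were tested, each by its brightest probe set. A difference is the mean of the 2 PILEC arrays minus the mean of the 2 mESC arrays on the log2 scale, SE is its standard error, and a gene is said to rise or fall where limma's moderated test gave a Benjamini-Hochberg adjusted p under 0.05. Genes with a mean of at least 7 are called expressed, which is a working limit and no measure of background, so a fold against a group under 7 is approximate.

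Arrays of the same group correlated at 0.998 over genes, in mESCs and in PILECs alike, though genes are no replicates of each other, whereas an mESC and a PILEC array correlated at 0.848 to 0.850. The SD over genes of the PILEC minus mESC difference was 1.29, and that of the difference between the 2 arrays of a group was 0.158 in mESCs and 0.155 in PILECs. The number of arrays limits the precision.

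Differentiation moved 11477 of the 18193 genes past the threshold, which is 63.1%. Of all genes 27.8% (5049) rose and 35.3% (6428) fell, and these shares are the background for every count below. The median difference over all genes was -0.08, with quartiles of -0.62 and 0.39. At least 2-fold changes were found for 2437 genes that rose and 3093 that fell, at least 16-fold changes for 205 and 108, and at least 64-fold changes for 26 and 2. Of the genes that rose, 1098 went from a mean under 7 to 7 or more, and 974 of those that fell went the other way. In 36.4% of all genes both PILEC arrays lay above both mESC arrays, and in 47.2% both lay below, so that separate groups alone say little about a gene. Of the 6390 genes with both means under 7, 1867 were called.

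**Figure D1:**
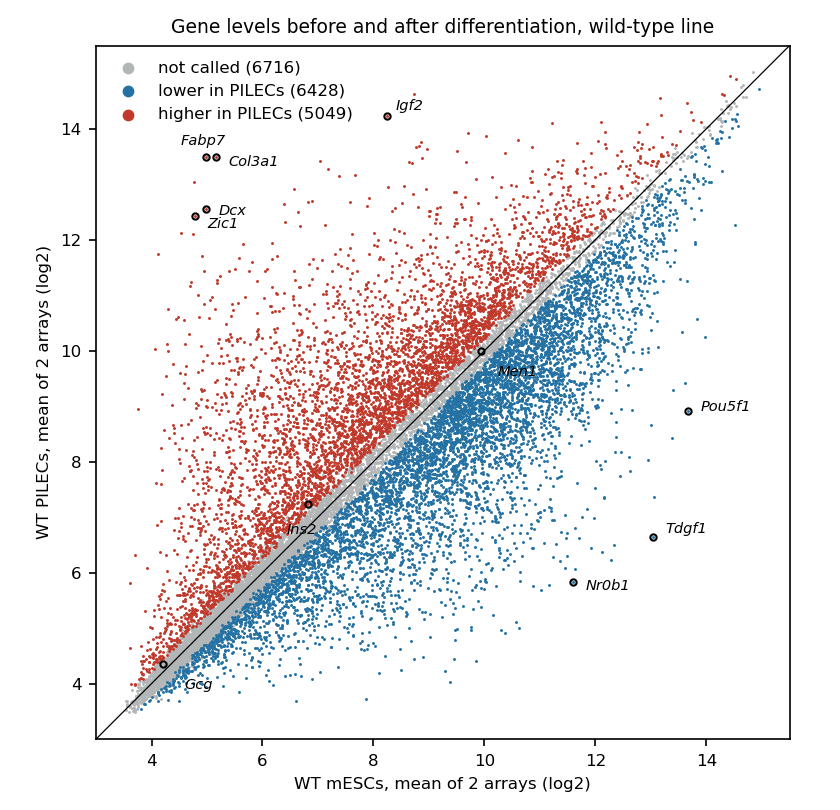
Mean log2 value of each of 18193 genes in wild-type mESCs (horizontal axis) and wild-type PILECs (vertical axis), 2 arrays per mean. Colours mark genes called higher (5049), called lower (6428) and not called (6716), the line marks equal values, and Fabp7 and Col3a1 sit farthest above it while Tdgf1, Pou5f1 and Nr0b1 sit far below.

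The 12 largest rises were mostly of genes of the developing nervous system and of mesenchyme. Fabp7, the brain lipid-binding protein of radial glia, was 5.16 and 4.80 in mESCs and 13.52 and 13.44 in PILECs, a rise of 8.50 (SE 0.145, 363-fold, adjusted p = 2.18e-08). Col3a1, a collagen of connective tissue, was 4.91 and 5.42 in mESCs and 13.42 and 13.55 in PILECs, a rise of 8.32 (SE 0.171, adjusted p = 3.08e-08). Both genes were low on both mESC arrays and high on both PILEC arrays, with no overlap. Gpm6a, a membrane glycoprotein of neurons, rose by 8.28, Zic1, a zinc finger factor of the dorsal neural tube, by 7.64, and Dcx, a microtubule protein of young migrating neurons, by 7.57. Cdh11, a cadherin of mesenchymal cells, rose by 7.64, and Igfbp5, a binding protein for insulin-like growth factors, by 7.60. Another probe set of Igfbp5 rose by only 1.48, from a mean of 7.53 to 9.01. The remaining 5 were Islr (7.37), the endothelin receptor Ednrb (6.79), the transcription factor Ebf3 (6.54), the synaptic vesicle GTPase Rab3c (6.50) and Slc17a6 (6.48), which loads glutamate into synaptic vesicles. None of the 12 encodes an islet hormone.

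The 12 largest falls were mostly of stem cell and germline genes. Tdgf1 (Cripto), a co-receptor for Nodal, was 13.09 and 12.99 in mESCs and 6.69 and 6.58 in PILECs, a fall of 84.9-fold (SE 0.131 on the log2 scale, adjusted p = 3.05e-08). Fgf4, the growth factor that stem cells secrete and respond to, was 12.29 and 12.27 before and 6.30 and 6.16 after. Both genes ended under the limit for an expressed gene on both PILEC arrays. Dppa2 fell by 5.83, the orphan nuclear receptor Nr0b1 by 5.76, Dnmt3l, the inactive partner of the de novo DNA methyltransferases, by 5.75, the RNA-binding protein L1td1 by 5.70 and the Ras-like GTPase Eras by 5.61. Tex19.1, which restrains retrotransposons in germ cells, fell by 5.56, the zinc finger gene Zfp982 by 5.47, the germ cell gene Rnf17 by 5.46, the basic helix-loop-helix gene Tcfl5 by 5.46 and the efflux transporter Slc47a1 by 5.44.

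Of 16 core and naive pluripotency regulators 16 fell (0 rose), with a median difference of -4.06 beside -0.08 over all genes. Pou5f1 was 13.63 and 13.70 in mESCs and 9.09 and 8.72 in PILECs, a fall of 27.2-fold (SE 0.124, adjusted p = 5.05e-08). Nanog went from 12.63 and 12.70 to 9.05 and 8.83, and Zfp42 (Rex1) from 13.59 and 13.64 to 9.50 and 9.33. These 3 genes fell on every comparison of arrays, yet their PILEC values stayed above 8, where the limit for an expressed gene is 7. In whole cultures, fewer cells of a type and less RNA per cell cannot be told apart. Esrrb fell by 4.81, Tcl1 by 4.62, and the Krüppel-like factors Klf2, Klf4 and Klf5 by 4.19, 2.64 and 2.99. Sox2, which is also a factor of neural progenitors, moved least, from 12.34 and 12.46 to 11.79 and 11.78, a fall of 1.53-fold (adjusted p = 0.00032). In 5 of the 16 the PILEC mean was under 7.

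Of 18 other stem cell markers measured 18 fell as well, with a median of -4.47. They included Gdf3 (-4.77), Fbxo15 (-4.71), Lin28a, which blocks maturation of let-7 (-4.23), and Mybl2, a cell cycle transcription factor (-4.17). Dppa5a stayed at 12.37 and 12.16 in PILECs after 14.52 and 14.51 in mESCs. Of 10 genes of the primed epiblast and the Nodal pathway 2 rose and 5 fell. The de novo methyltransferase Dnmt3b fell by 4.92 and Nodal by 3.93, whereas Sox3 (1.19) and Otx2 (0.56), which neural tissue keeps on, rose. Of 10 mesendoderm genes 2 rose and 3 fell. Lhx1 went from 5.87 and 6.47 to 9.05 and 8.91 and Eomes from 7.03 and 7.03 to 8.78 and 8.61, and both are also used in the developing brain. Mixl1, Gsc and Mesp1 were under 7 in PILECs.

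The germline list fell almost in full, 13 of 14 genes with a median of -3.70 and 0 that rose. Stem cells of the mouse keep a set of germ cell genes on that somatic tissues silence by DNA methylation and by repressors bound at their promoters. Mael, a piRNA pathway protein, was 9.38 and 9.39 in mESCs and 4.29 and 3.78 in PILECs, a fall of 40.8-fold (SE 0.171, adjusted p = 1e-07). Ddx4 (Vasa), an RNA helicase of germ cells, went from 9.26 and 9.30 to 4.26 and 4.17, and Dmrt1 from 9.51 and 9.42 to 4.89 and 5.03. All 3 were above 9 on both mESC arrays and under 6 on both PILEC arrays. Sycp3 and Hormad1, both of the meiotic chromosome axis, fell by 4.29 and 4.14. Tex101 (-0.36) did not pass, and it was under 7 in both groups.

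Promoters of 12 of the 14 germline genes stand in the RefSeq table used, as 16 windows of 250 bases before a transcript's start, some of which overlap in 1 gene. The 3 below have the largest falls among those with a match, and capitals mark CACGTG, the palindromic E-box, and TCCCGC or its reverse complement GCGGGA, the core of an E2F site. Build GRCm38.p6 places them upstream of the transcript at chr11:121145893-121146142 on the plus strand for Tex19.1, chr1:166238745-166238994 on the minus strand for Mael and chr13:112652311-112652560 on the minus strand for Ddx4, each written 5′ to 3′ in the direction of the gene.
Tex19.1: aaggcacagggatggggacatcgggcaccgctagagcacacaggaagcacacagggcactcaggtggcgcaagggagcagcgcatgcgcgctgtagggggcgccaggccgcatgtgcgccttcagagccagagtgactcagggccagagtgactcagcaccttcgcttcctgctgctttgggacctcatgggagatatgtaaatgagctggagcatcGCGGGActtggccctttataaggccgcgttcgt
Mael: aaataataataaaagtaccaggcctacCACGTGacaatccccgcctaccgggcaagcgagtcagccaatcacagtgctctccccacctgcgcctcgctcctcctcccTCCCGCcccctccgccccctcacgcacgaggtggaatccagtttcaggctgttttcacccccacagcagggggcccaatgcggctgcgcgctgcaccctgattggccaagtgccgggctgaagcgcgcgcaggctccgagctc
Ddx4: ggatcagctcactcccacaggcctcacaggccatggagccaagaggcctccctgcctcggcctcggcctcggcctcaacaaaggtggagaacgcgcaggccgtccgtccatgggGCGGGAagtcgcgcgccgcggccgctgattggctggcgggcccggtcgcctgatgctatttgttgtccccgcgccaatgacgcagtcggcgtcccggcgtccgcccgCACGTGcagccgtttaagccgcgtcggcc
CACGTG was in 11 of the 16 windows (68.8%), in 6.02% of all 32851 windows of the table and in 7.39% of those of tested genes. TCCCGC was in 6 of the 16 (37.5%), in 16.9% of all and in 24.6% of those of tested genes, on either strand. Of all 14367 tested genes with a window 27.6% rose and 36.1% fell. Of the 1256 with CACGTG 27.3% rose and 44.9% fell, and of the 4029 with TCCCGC 33.2% rose and 41.8% fell. A match describes the letters of the window and no binding was measured here.

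Of 13 genes of DNA methylation 9 fell and 1 rose, with a median of -0.83. Besides Dnmt3l and Dnmt3b, the dioxygenase Tet1 fell from 11.77 and 11.76 to 9.03 and 8.85, and Uhrf1, which guides methylation of the new strand, fell by 2.33. The maintenance enzyme Dnmt1 fell by 0.78, and Mbd2, a reader of methylated DNA, rose by 0.63 but differed by 0.08 on its other probe set. Of 5 measured oncofetal RNA-binding and Hmga genes 4 fell. Igf2bp1 fell by 2.31, Igf2bp3 by 1.03 and Hmga2 by 0.84, and Lin28b was near 4 in both groups.

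Every measured gene of the mitosis list fell (24 of 24, median -1.98), and so did every measured gene of the DNA replication list (29 of 29, median -1.74). Kif11, the motor that separates spindle poles, was 10.59 and 10.48 in mESCs and 7.93 and 8.02 in PILECs, a fall of 5.88-fold (SE 0.106, adjusted p = 3.01e-07). The checkpoint kinase Bub1b fell by 2.46, Kif20a by 2.42 and Aurka, the kinase of spindle poles, by 2.40. Mcm10, which helps to start replication, went from 11.80 and 11.79 to 8.73 and 8.75, and the licensing factors Cdt1 and Cdc6 fell by 2.88 and 2.62. No gene of either list was under 7 on average in mESCs, and all but Tyms stayed at 7 or more in PILECs. Mki67, the antigen used to count cycling cells, fell least in its list, from 11.60 and 11.55 to 10.62 and 10.74. Of 8 G1 cyclins and their kinases 7 fell and 1 rose. Ccne1 fell by 2.26 and Ccnd1 by 1.51, while Ccnd2, the D-type cyclin of neural progenitors, went from 9.54 and 9.41 to 12.29 and 12.30, a rise of 7.05-fold (adjusted p = 1.02e-07). Of 7 CDK inhibitors 3 rose and 1 fell. Cdkn2c (p18) rose by 1.99, Cdkn1b (p27) by 1.87 and Cdkn2d (p19) by 1.13, and Cdkn2a, which was under 7 in both groups, fell by 1.24. The count of CDK inhibitors that rose was 5 without either menin-null PILEC array, since Cdkn1a and Cdkn1c (0.25 each) lay at the threshold.

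Many mitotic promoters are known to hold CCAAT boxes, bound by NF-Y, and a cell cycle homology element with the letters TTTGAA or TTCGAA. The windows shown are those of the 4 mitosis genes with the largest falls whose 250 bases hold both, with the matches on either strand in capitals. In build GRCm38.p6 they are chr19:37376132-37376381 (plus strand, Kif11), chr2:118597961-118598210 (plus strand, Bub1b), chr4:118437344-118437593 (minus strand, Cdc20) and chr2:164769679-164769928 (plus strand, Ube2c), just upstream of the transcript.
Kif11: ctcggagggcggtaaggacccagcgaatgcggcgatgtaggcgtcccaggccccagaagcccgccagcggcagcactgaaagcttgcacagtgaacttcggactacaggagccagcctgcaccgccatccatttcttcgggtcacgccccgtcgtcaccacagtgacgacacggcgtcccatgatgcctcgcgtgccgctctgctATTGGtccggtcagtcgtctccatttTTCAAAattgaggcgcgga
Bub1b: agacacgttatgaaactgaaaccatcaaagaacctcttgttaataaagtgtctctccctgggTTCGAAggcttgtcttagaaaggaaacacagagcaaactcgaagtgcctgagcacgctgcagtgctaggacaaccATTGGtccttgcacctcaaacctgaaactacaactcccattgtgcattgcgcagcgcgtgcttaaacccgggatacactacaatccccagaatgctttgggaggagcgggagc
Cdc20: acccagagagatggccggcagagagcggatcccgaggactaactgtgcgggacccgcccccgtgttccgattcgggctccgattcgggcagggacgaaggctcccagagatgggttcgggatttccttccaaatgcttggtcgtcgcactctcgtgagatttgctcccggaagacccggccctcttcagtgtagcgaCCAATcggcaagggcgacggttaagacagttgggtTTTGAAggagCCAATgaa
Ube2c: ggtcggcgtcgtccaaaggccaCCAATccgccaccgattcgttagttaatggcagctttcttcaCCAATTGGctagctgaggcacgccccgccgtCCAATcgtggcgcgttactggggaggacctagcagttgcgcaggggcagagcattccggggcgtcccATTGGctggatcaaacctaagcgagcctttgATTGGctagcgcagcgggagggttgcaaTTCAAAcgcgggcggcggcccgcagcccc
CCAAT was in 17 of 21 windows from 20 of the mitosis genes (81.0%), in 33.8% of all windows and in 34.8% of those of tested genes. TTTGAA or TTCGAA was in 10 of the 21 (47.6%), in 17.1% of all and in 13.3% of those of tested genes. In Ube2c a match on each strand overlaps in CCAATTGG. Of the 830 tested genes with both kinds of match 23.7% rose and 37.7% fell, beside 27.6% and 36.1% of all tested genes with a window.

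The labels name the differentiated cells for pancreatic islets, and on these arrays most islet hormones changed little. The paper reports low to moderate islet hormone transcripts by RT-PCR, insulin staining by a C-peptide antibody and a rise of NeuroD1 protein after differentiation. Those are other measures than array RNA of whole cultures, and the identity of the cells was not tested here. Of 7 measured islet hormones 1 rose and 1 fell, with a median of 0.15. Ins2, which encodes insulin, was 6.65 and 6.99 in mESCs and 7.13 and 7.33 in PILECs, a difference of 0.41 (SE 0.159, unadjusted 95% interval 0.04 to 0.78, adjusted p = 0.0533). In a limma fit of the wild-type arrays alone the same difference passed (adjusted p = 0.0331). Gcg (glucagon) was 4.15 and 4.27 in mESCs and 4.35 and 4.37 in PILECs, and Iapp (amylin) was 4.21 and 4.35 against 4.45 and 4.42. In Ins2, Gcg and Iapp the arrays of the groups did not overlap, but the differences were at most 0.41, and Gcg and Iapp lay under 5 on all 4 arrays, where the table reaches down to 3.26. With single arrays left out the adjusted p of Ins2 ran from 0.0277 without mESC array 2 (difference 0.58) to 0.297 without mESC array 1 (difference 0.24), and it was under the threshold without any 1 menin-null array. Sst (somatostatin), made by delta cells and by many neurons, was the hormone that rose, from 6.41 and 6.87 to 9.30 and 8.82 (5.33-fold, SE 0.228, adjusted p = 2.81e-05). Ppy fell by 0.44, a call lost without mESC array 2 or without either PILEC array, and Ghrl (-0.39) and Pyy (-0.16) did not pass. The count of hormones that rose was 2 without mESC array 2 or any 1 menin-null array, and the count that fell was 0 without PILEC array 1. Ins1 was not analysed here.

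**Figure D2:**
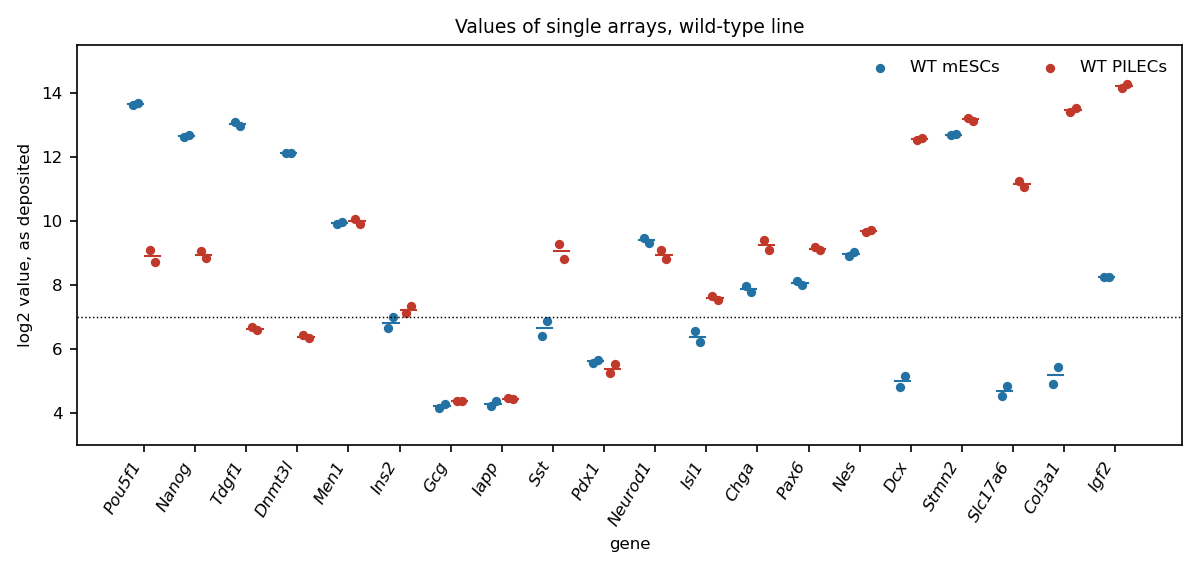
Deposited log2 value on each array (vertical axis) for 20 genes (horizontal axis) in wild-type mESCs and wild-type PILECs. Points are arrays, short lines are means of 2 arrays and the dotted line marks 7, and Gcg, Iapp and Pdx1 lie below it in both groups while Sst, Dcx, Slc17a6, Col3a1 and Igf2 rise.

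Of 13 measured islet transcription factors 7 rose and 3 fell, with a median of 1.05. Pdx1, the master factor of the pancreas and the beta cell, was 5.56 and 5.65 in mESCs and 5.25 and 5.51 in PILECs (difference -0.22, adjusted p = 0.312). Neurog3, which marks endocrine progenitors, fell by 0.55 with both means under 7, and Pax4 (0.38, adjusted p = 0.28) did not pass. In a limma fit of the wild-type arrays alone Pax4 passed (adjusted p = 0.0225), with both means under 7. Neurod1, which islets and neurons share, was 9.47 and 9.32 in mESCs and 9.10 and 8.80 in PILECs, a fall of 0.44 (SE 0.148, adjusted p = 0.0299). That call was lost without either mESC array or without PILEC array 2, with an adjusted p of up to 0.199, and its other probe set differed by -0.56. The paper reports that NeuroD1 protein rose on differentiation in both lines, whereas the values here are RNA. Hhex, an endoderm factor that stem cells also hold, fell from 8.88 and 8.78 to 5.83 and 5.74. The 7 that rose were Myt1 (3.62), St18 (3.11), Nkx2-2 (2.24), Insm1 (2.10), Isl1 (1.20), Pax6 (1.08) and Nkx6-1 (1.05), each of which is also a factor of the developing nervous system. Isl1, for example, went from 6.55 and 6.21 to 7.64 and 7.52, and its other probe set rose by 2.94.

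The granins and prohormone processing genes, which build and fill secretory granules in endocrine cells and neurons alike, rose in 10 of 12 measured members (0 fell), with a median of 2.95. Scg5, the 7B2 chaperone, was 4.97 and 4.75 in mESCs and 10.75 and 10.48 in PILECs, a rise of 53.9-fold (SE 0.265, adjusted p = 4.84e-07). Chgb went from 4.97 and 5.33 to 10.94 and 10.57, Scg2 from 5.19 and 4.90 to 10.66 and 10.50, and carboxypeptidase E (Cpe) from 9.06 and 8.87 to 13.62 and 13.67. All of these crossed the limit for an expressed gene or started above it. Chga rose less, by 1.38, and Pcsk1, the convertase that cuts proinsulin, was under 7 in both groups (-0.25, adjusted p = 0.195). Of 10 genes of glucose sensing and insulin secretion 5 rose and 2 fell. Syt7, a calcium sensor of exocytosis, rose by 2.0, Kcnj11, a subunit of the ATP-sensitive potassium channel, by 0.51 and Rab3a, a GTPase of secretory vesicles, by 0.50. Another probe set of Rab3a rose by 3.50, from a mean of 7.86 to 11.36. The glucose transporter Slc2a2 rose by 0.48 but ended at 4.70 and 4.67, the zinc transporter Slc30a8 was 4.78 and 5.02 in PILECs, and the sulfonylurea receptor Abcc8 did not pass (-0.13). The count that rose was 2 without mESC array 1, 2 without PILEC array 1 and 3 without PILEC array 2, and the count that fell was 1 without either mESC array and 0 without either PILEC array.

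Of 14 exocrine and duct pancreas genes 1 rose and 4 fell, with a median of -0.21. Amy1, an amylase of salivary gland and liver, rose from 4.29 and 3.88 to 7.75 and 7.49, read by a single probe set, while Cpa1, Cpb1, Cela2a and Ptf1a were under 7 in both groups. Amy2a5, the pancreatic amylase, was not analysed here, and amylase genes are near-identical copies that a probe set may not tell apart. The duct and epithelial keratin Krt19 fell by 2.06. Of 11 endoderm transcription factors 4 rose and 5 fell (3 without PILEC array 2). Foxa1 went from 6.14 and 6.12 to 8.11 and 7.89 and Foxa2 from 6.90 and 7.08 to 8.0 and 7.87, and both are also factors of the neural floor plate. Gata4 fell by 1.51, Foxa3 by 1.02 (a call lost without mESC array 1 or PILEC array 2) and Sox17, the factor of definitive and primitive endoderm, by 0.97. Hnf4a was near 7 in both groups and did not pass (-0.18).

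Of 15 liver and visceral endoderm genes 1 rose and 5 fell. Ttr (transthyretin), made by liver, visceral endoderm and choroid plexus, went from 7.36 and 7.61 to 10.62 and 10.73 (9.13-fold, SE 0.131, adjusted p = 2.79e-07). Cubn and Amn, which form the cubilin receptor of visceral endoderm, fell by 3.36 and 2.45, and Alb and Afp stayed under 6 on every wild-type array. Of 15 genes of parietal endoderm and basement membrane 8 rose and 5 fell. Tissue plasminogen activator (Plat) rose by 4.40 and laminin alpha 4 (Lama4) by 2.45, while laminin alpha 5 (Lama5) fell by 2.90, to 7.07 and 7.21. The laminin chains Lama1, Lamb1 and Lamc1 fell by 1.36, 0.83 and 0.97, whereas the type IV collagens Col4a1 and Col4a2 rose by 1.30 and 1.35.

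Neurons and neural progenitors had the highest medians of the 50 lists. Of 17 neural progenitor genes measured 17 rose, with a median of 3.62, and the mean log2 value of the list was 7.04 and 7.0 on the mESC arrays and 10.46 and 10.42 on the PILEC arrays. Id4, an inhibitor of differentiation, went from 7.48 and 7.28 to 13.14 and 13.16, a rise of 54.5-fold (SE 0.143, adjusted p = 4.47e-08). Sox11 and Sox4, factors of newborn neurons, reached 13.61 and 13.60 and 14.10 and 14.11, rises of 4.09 and 2.90. Neurog2, which commits progenitors to the glutamatergic lineage, rose by 4.35, the Notch target Hes5 by 3.62, Sox9 by 3.78 and the chemokine Cxcl12 by 4.97. Nes (nestin) was already 8.90 and 9.02 in mESCs and rose by 0.73.

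Of 24 neuronal genes measured 23 rose and 0 fell, with a median of 4.06. The mean log2 value of this list was 7.46 and 7.52 in mESCs and 11.44 and 11.33 in PILECs. Map2, a dendritic microtubule protein, went from 6.39 and 6.42 to 12.36 and 12.27, a rise of 60.3-fold (SE 0.128, adjusted p = 3.26e-08). Snap25, a SNARE of synaptic vesicles, went from 4.22 and 4.75 to 10.65 and 10.57, and the glutamate receptor subunit Gria2 from 4.98 and 5.21 to 11.11 and 10.84. These genes were under 7 on both mESC arrays and above 10 on both PILEC arrays. Genes of both main transmitters rose, since Gad1, which makes GABA, went from 5.35 and 5.0 to 11.30 and 11.26 beside the glutamate transporter Slc17a6. Rbfox3 (NeuN) rose by 4.0, Syt1 by 4.53 and Tubb3 by 3.43. Th, the enzyme of catecholamine neurons, did not pass (-0.17, both means under 7), and Stmn2 was as high as 12.68 and 12.72 in mESCs and rose by 0.49. Another probe set of Stmn2 rose by 2.22, from a mean of 11.39 to 13.61. Of 12 glial genes measured 7 rose and 0 fell, with a median of 0.98. The glutamate transporter Slc1a2 rose by 4.35 and Olig1 by 2.66, Gfap of astrocytes rose by 0.80 to 7.41 and 7.45, and the astrocyte genes Aqp4 and Aldh1l1 and the oligodendrocyte factor Sox10 did not pass.

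Of 21 regional transcription factors of the neural tube 17 rose and 1 fell, with a median of 1.63. Dlx1 and Dlx2, factors of GABAergic progenitors in the ventral forebrain, went from 5.12 and 5.29 to 10.17 and 10.09 and from 6.25 and 6.22 to 10.18 and 10.49. Lhx2, a factor of the dorsal forebrain, rose by 4.78, and Irx3 and Irx5 of the neural tube rose by 3.54 and 3.66. Factors of several regions rose side by side, since Six3 and Emx2 of the forebrain (1.74 and 1.88), En1 of the midbrain and hindbrain boundary (1.03, with both means under 7), Lmx1b (1.51) and Tlx3 (0.75) all passed. The other probe sets of Six3 differed by -0.23 and -0.12 and that of Lmx1b by 0.03, all under 7 in both groups. Gbx2, which naive stem cells and the hindbrain use, fell from 10.56 and 10.56 to 6.53 and 6.36, and Nkx2-1 of the ventral forebrain was under 7 and did not pass (0.09).

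**Figure D3:**
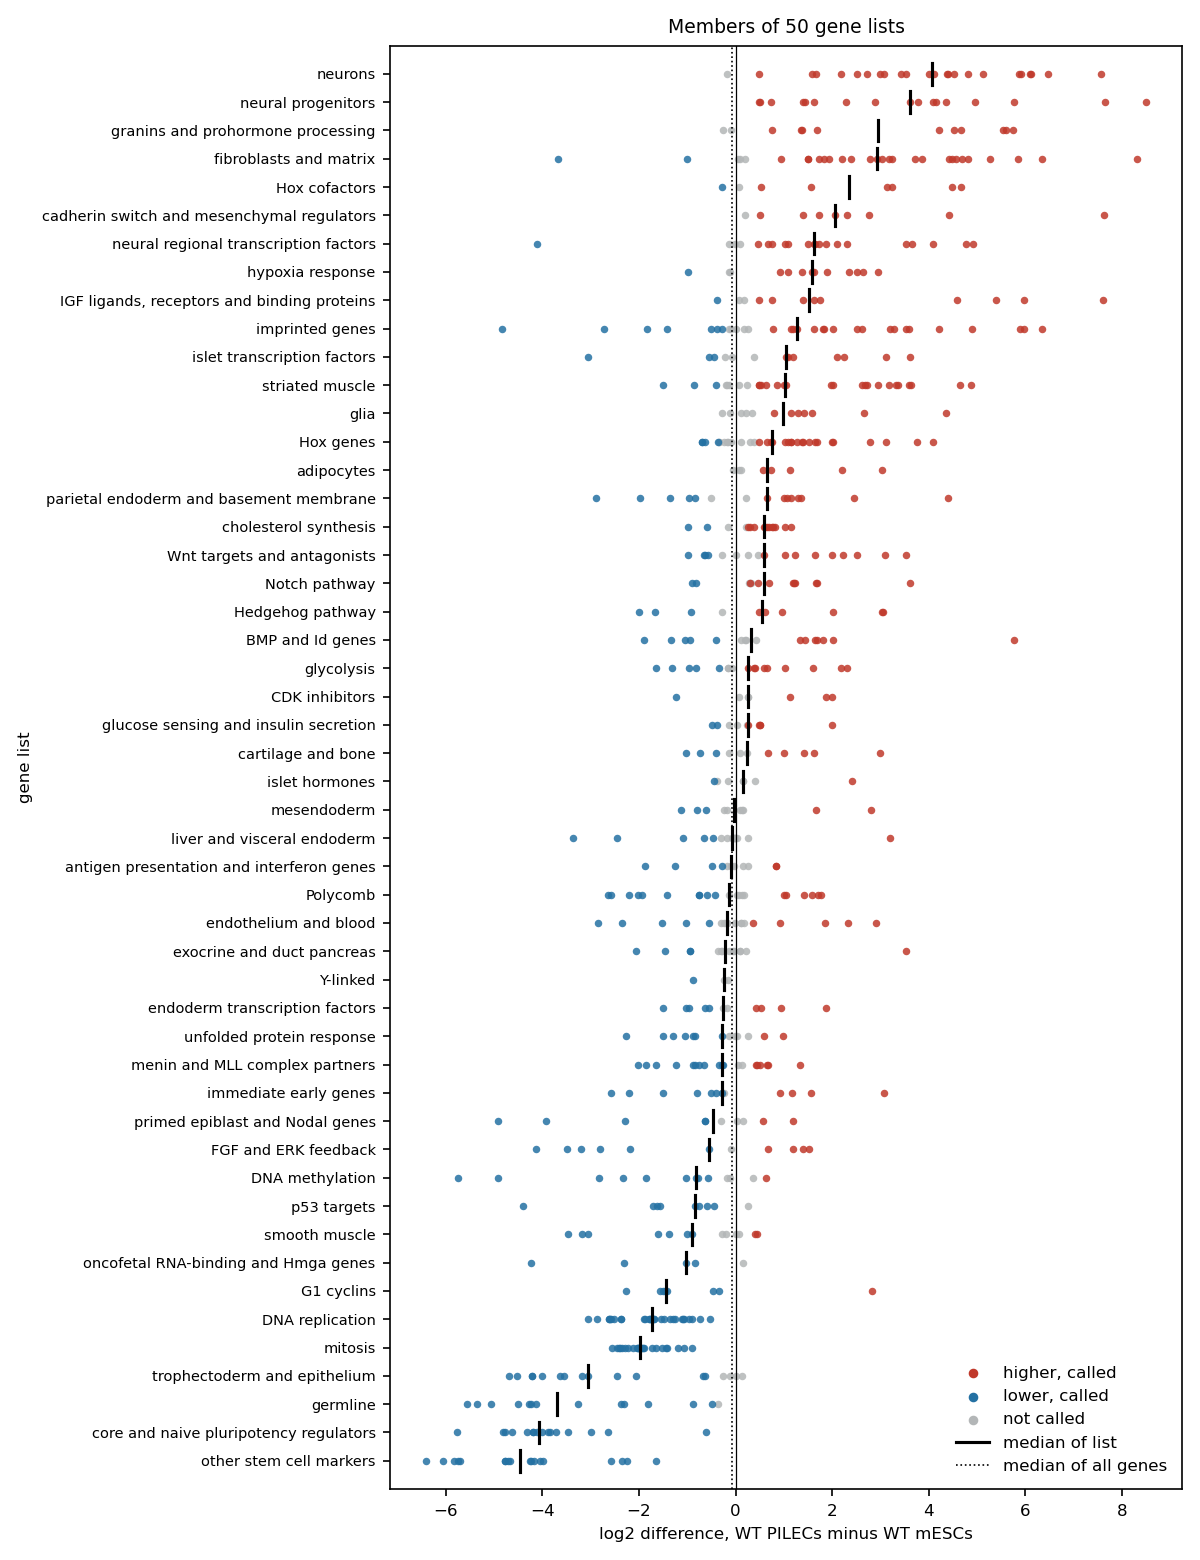
Log2 difference between wild-type PILECs and wild-type mESCs (horizontal axis) for each member of 50 gene lists (vertical axis, ordered by median). Points are genes coloured by call, thick bars are list medians and the dotted line is the median of all genes (-0.08), with the medians running from -4.47 for other stem cell markers to 4.06 for neurons.

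Of 29 fibroblast and matrix genes 24 rose and 2 fell, with a median of 2.93, and the mean log2 value of the list was 6.84 and 6.94 in mESCs and 9.61 and 9.77 in PILECs. Decorin (Dcn), a proteoglycan that coats collagen, went from 6.34 and 6.80 to 12.89 and 12.94, a rise of 81.3-fold (SE 0.24, adjusted p = 2e-07). Col1a2 rose by 5.85, Col1a1 by 4.69, periostin (Postn) by 5.27 and Prrx1, a factor of limb and head mesenchyme, by 4.81. The receptors Pdgfra and Pdgfrb, which mark mesenchymal progenitors and pericytes, rose by 2.78 and 2.39. Timp1, an inhibitor of matrix proteases, moved the other way, from 10.27 and 10.36 to 6.69 and 6.58, and Thy1 fell by 1.0.

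Of 9 cadherin switch and mesenchymal regulators 8 rose and 0 fell, with a median of 2.07. Cdh2 (N-cadherin) went from 7.47 and 7.14 to 11.70 and 11.77, Zeb1 rose by 2.77, Snai2 by 2.30 and vimentin (Vim) by 2.07. Genes of trophectoderm and epithelium moved the other way, with 13 of 17 lower, 0 higher and a median of -3.05. Cdh1 (E-cadherin) was 11.79 and 11.90 in mESCs and 7.25 and 7.04 in PILECs, a fall of 26-fold (SE 0.0947, adjusted p = 3.05e-08). Epcam fell by 4.53, Cldn7 by 4.22, Esrp1, a splicing factor of epithelia, by 4.22 and Grhl2 by 4.0. The other probe set of Epcam differed by 0.10, with means of 8.25 in mESCs and 8.35 in PILECs. Islet cells are among the epithelial cells known to keep Cdh1 and Epcam on. Whether fewer epithelial cells or less RNA per cell lay behind these falls was not tested.

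Of 28 striated muscle genes 20 rose and 3 fell, with a median of 1.03. Actc1, the actin of heart and embryonic muscle, went from 6.50 and 6.62 to 11.29 and 11.60, a rise of 29.5-fold (SE 0.202, adjusted p = 2.89e-07). Myogenin (Myog), which commits myoblasts to fuse, went from 5.86 and 5.62 to 9.24 and 9.52, Myl1 rose by 4.65 and Myl4 by 3.58. Both PILEC arrays were high for all 4 genes on the probe sets used. The other probe set of Myl4 differed by 0.16, with means of 7.30 in mESCs and 7.46 in PILECs. Embryonic myosin (Myh3) rose by 2.95, while Myf5 was under 5 and Ckm of mature muscle under 7 in both groups, and neither passed. Smooth muscle genes did not follow, with 2 of 13 higher and 7 lower (median -0.91). Tagln fell by 3.46, to 7.35 and 7.66, Cnn1 by 3.18 and Ccn2, a matricellular protein induced by YAP and TGF-beta, by 3.05. The count of smooth muscle genes that rose was 0 without either mESC array and 1 without either PILEC array. Tpm2 fell by 1.62 on its brightest probe set, and the differences of its other sets ran from -0.99 to 1.86.

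Of 11 cartilage and bone genes 5 rose and 3 fell. Col11a1 rose by 2.99, Sox5 by 1.63 and Sox6 by 1.42, while aggrecan (Acan) fell by 1.03. Of 8 adipocyte genes 5 rose and 0 fell, with a median of 0.65. Fabp4 went from 4.97 and 4.70 to 7.64 and 8.09, though of its other 3 probe sets, all dimmer on average, 2 differed by -0.04 and 0.22 and the third rose by 1.97, and adiponectin (Adipoq) rose by 2.20. Of 19 endothelial and blood genes 5 rose and 5 fell. The endothelial genes Emcn and Cdh5 rose by 2.90 and 2.33, Pecam1, which stem cells also express, fell from 9.16 and 9.01 to 6.44 and 6.02, and globins and Ptprc of blood cells were under 7 in both groups.

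Hox genes lie in 4 clusters and pattern the body axis in the order of their position, and 29 of the 33 measured were under 7 in mESCs. Of 33 Hox genes measured 20 rose and 4 fell, with a median of 0.76, and 17 of the 33 had both means under 7. Hoxc8 was 4.19 and 4.14 in mESCs and 8.36 and 8.14 in PILECs, a rise of 17-fold (SE 0.105, adjusted p = 4.91e-08). Hoxb6 went from 5.09 and 5.45 to 9.27 and 8.80, Hoxb5 from 4.60 and 4.50 to 8.03 and 7.28, and Hoxb2 from 6.04 and 6.55 to 9.15 and 9.0. All 4 were under 7 on every mESC array and above it on every PILEC array. By cluster the largest rises were in Hox B and Hox C, and in Hox A none exceeded 1.08 (Hoxa2). The 4 that fell were Hoxb13, Hoxc13, Hoxd13 and Hoxd1, all under 7 in both groups, and the call of Hoxc13 was lost without mESC array 1 or PILEC array 2. Of 8 Hox cofactors 6 rose and 1 fell, with Meis2 at 4.66, Meis1 at 4.49, Pbx3 at 3.24 and Pknox2 at 3.14. The fall of Pknox1 (-0.27) was lost without any 1 of the 4 wild-type arrays.

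**Figure D4:**
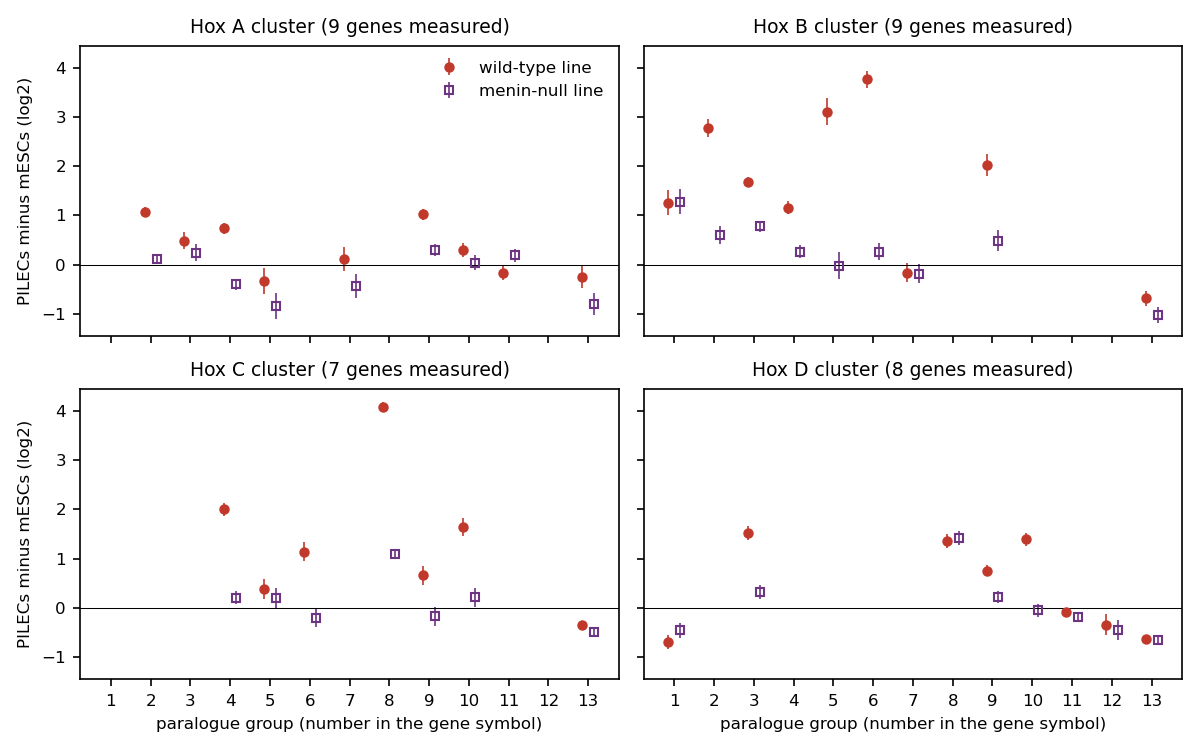
Log2 difference between PILECs and mESCs (vertical axis) of 33 Hox genes by the number in their symbol (horizontal axis), 1 panel per cluster. Filled circles are the wild-type line and open squares the menin-null line, each with the standard error of the model as a bar, and the largest wild-type rises are Hoxb5 and Hoxb6 in Hox B and Hoxc8 in Hox C.

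Imprinted genes, expressed from 1 parental copy and often linked to fetal growth, rose in 19 of 31 measured members and fell in 7, with a median of 1.27. Igf2, the fetal growth factor, was 8.25 and 8.25 in mESCs and 14.17 and 14.29 in PILECs, a rise of 63-fold (SE 0.108, adjusted p = 2.55e-08). Nnat (neuronatin) reached 14.65 and 14.59 after 8.67 and 8.79, and Plagl1 and Ndn rose by 4.90 and 4.22. Peg3 rose by 3.20, Dlk1 by 2.61 (a second, dim probe set differed by 0.00302), and the noncoding Meg3, at 12.94 and 12.90 already in mESCs, by 1.16. Its dimmer probe sets rose by up to 5.26. Phlda2, a brake on placental growth, moved the other way, from 11.63 and 11.64 to 6.67 and 6.95. Of 12 ligands, receptors and binding proteins of the insulin-like growth factors 9 rose and 1 fell, with a median of 1.51. Igf1 went from 5.42 and 5.49 to 10.62 and 11.07 and Igfbp4 from 8.91 and 8.86 to 13.37 and 13.56, and the receptors Igf1r and Insr rose by 1.75 and 1.62. Igf2r, which clears Igf2, fell by 0.38, and no gene of this list fell without mESC array 2 or PILEC array 1.

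The signalling lists moved in both directions. Of 16 BMP and Id genes 7 rose and 5 fell. Besides Id4, Noggin (Nog), which blocks BMPs, rose by 2.02, while Smad7 and Id1, both targets of the pathway, fell by 1.90 and 1.04. Of 17 Wnt targets and antagonists 9 rose and 4 fell. The antagonists Dkk2, Frzb and Sfrp2 rose by 3.54, 2.51 and 2.23 and the ligand Wnt5a by 3.10, whereas Dkk1 and Sp5, which respond to Wnt, fell by 0.98 and 0.65 and Axin2, another such gene, rose by 1.22. Of 14 Notch pathway genes 9 rose and 2 fell, with Hey1 (1.70), Dll1 (1.67) and Hes6 (1.22) beside Hes5, and Hes1 lower by 0.90. Of 11 genes of FGF signalling and ERK feedback 4 rose and 6 fell. The feedback genes Etv5, Etv4, Spry4 and Dusp6 went down steeply, Etv5 from 12.07 and 12.08 to 8.07 and 7.81 (17.6-fold, SE 0.102, adjusted p = 4.47e-08), while the receptors Fgfr1, Fgfr2 and Fgfr3 rose by 0.67, 1.39 and 1.20, of which Fgfr1 differed by 0.10 and 0.15 on its other probe sets. Of 10 Hedgehog pathway genes 6 rose and 3 fell. The ligand Shh went from 6.74 and 6.76 to 9.79 and 9.81, and Gas1 and Boc, which help cells to bind it, rose by 3.04 and 2.01, but the targets Gli1 and Ptch1 fell by 1.67 and 0.93.

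Of 17 glycolysis genes 9 rose and 5 fell, with a median of 0.26. Hk2, the hexokinase of proliferating and embryonic cells, fell from 11.89 and 11.88 to 10.22 and 10.24, and Hk1, the isoform of brain, rose from 9.49 and 9.40 to 11.06 and 11.05. The neuronal enolase Eno2 rose by 2.30, and the muscle enolase Eno3 fell by 1.32. Aldoc rose by 2.18 on its brighter probe set, and its other set, under 5 in both groups, differed by -0.03. Without probe sets whose names end in s, x or a, 4 of the 10 glycolysis genes left rose and the median was -0.19. Of 16 cholesterol synthesis genes 12 rose and 2 fell, with Hmgcs1 at 1.16 and Nsdhl at 1.03. Lss, 1 of the 2 that fell (-0.98), rose by 2.41 on another probe set, so its direction depends on the probe set.

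Hypoxia response genes rose in 10 of 13 members and fell in 1, with a median of 1.58. Adm (adrenomedullin) went from 6.66 and 6.80 to 9.69 and 9.69 (7.79-fold, SE 0.0934, adjusted p = 9.7e-08), Ddit4 from 10.31 and 10.30 to 12.93 and 12.96, and Vegfa from 8.48 and 8.55 to 10.88 and 10.86. The oxygen sensor Egln1 rose by 2.51, Pdk1 fell by 0.99 though another of its probe sets rose by 0.59, and Car9, one of the most specific genes of the response, was under 7 and did not pass (-0.11). Hypoxia-inducible factors bind a core of ACGTG, which was in 9 of the 16 windows from 12 of these genes (56.2%) and in 16.6% of all windows (19.6% of those of tested genes), and which CACGTG contains. Of the genes that rose, Ddit4 and Egln1 had the largest rises with a match, in build GRCm38.p6 at chr10:59951771-59952020 and chr8:124949255-124949504, both on the minus strand and upstream of the transcript, with the match in capitals.
Ddit4: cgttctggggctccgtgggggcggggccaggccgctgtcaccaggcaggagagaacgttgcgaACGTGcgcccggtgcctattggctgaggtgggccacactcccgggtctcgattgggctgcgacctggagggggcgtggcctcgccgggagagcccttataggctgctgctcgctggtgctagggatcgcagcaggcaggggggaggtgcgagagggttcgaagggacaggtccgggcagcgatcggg
Egln1: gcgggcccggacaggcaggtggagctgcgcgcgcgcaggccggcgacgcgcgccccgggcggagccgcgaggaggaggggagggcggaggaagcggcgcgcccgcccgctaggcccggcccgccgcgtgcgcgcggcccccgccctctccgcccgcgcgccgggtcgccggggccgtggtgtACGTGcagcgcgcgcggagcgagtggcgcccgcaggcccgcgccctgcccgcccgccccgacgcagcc
Of the 3230 tested genes with ACGTG in a window 29.7% rose and 40.6% fell, beside 27.6% and 36.1% of all tested genes with a window.

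Of 9 p53 targets 8 fell and 0 rose (1 without either menin-null PILEC array), with a median of -0.85. Perp, which epithelia also use in desmosomes, fell from 9.87 and 9.91 to 5.61 and 5.36, and Sesn2, Zmat3 and Phlda3 fell by 1.72, 1.63 and 1.56. Of 13 genes of the unfolded protein response 2 rose and 7 fell, led by Trib3 (-2.28), Atf3 (-1.50) and Sdf2l1 (-1.30), while Hspa5 and Xbp1 did not pass. Of 13 immediate early genes 4 rose and 7 fell. Jun went from 8.42 and 8.51 to 11.61 and 11.48 and Fos rose by 1.57, and Ier2 and Junb fell by 2.59 and 2.22. Of 11 genes of antigen presentation and the interferon response 2 rose and 4 fell (2 without mESC array 1 or PILEC array 1), with B2m and H2-D1 higher by 0.83 and 0.85 and the immunoproteasome subunits Psmb9 and Psmb8 lower by 1.88 and 1.26. Of 3 Y-linked genes 1 fell, Uty by 0.87.

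Men1, which encodes menin, did not pass the test. It was 9.90 and 9.97 in mESCs and 10.06 and 9.92 in PILECs, a difference of 0.05 (SE 0.0859, 95% interval -0.15 to 0.25, adjusted p = 0.617), and the arrays overlapped. After quantile normalisation it differed by 0.23 and passed (adjusted p = 0.0333). Of 19 genes of menin and its partners in MLL histone methyltransferase complexes 6 rose and 11 fell, with a median of -0.29. The core subunits Dpy30, Wdr5, Ash2l and Rbbp5 fell by 2.03, 1.85, 1.64 and 0.88. Of the catalytic subunits Kmt2a (MLL1) rose by 0.65 and Kmt2c and Kmt2d by 0.45 and 0.50, while Kmt2b, Setd1a and Setd1b fell by 0.25, 0.64 and 0.29. The other probe set of Kmt2d differed by -0.06, and the call of Kmt2d was lost with the mean of all its probe sets (0.22). The call of Kmt2b was lost without any 1 of the 4 wild-type arrays, and that of Setd1b without either mESC array or without PILEC array 2. Of 21 Polycomb genes 6 rose and 10 fell, with a median of -0.13. Cbx7 went from 10.65 and 10.61 to 8.18 and 7.80 and Phc1 from 13.15 and 13.06 to 10.61 and 10.45, whereas Cbx8 rose by 1.59, Phc2 by 1.71 and Bmi1 by 1.77. The PRC2 core fell, Eed by 2.22, Ezh2 by 0.75 and Suz12 by 0.59, and Ezh1 did not pass (-0.13).

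The menin-null line, taken through the same protocol, gave the same comparison in different arrays. There 28.9% of genes rose and 36.1% fell. Of the genes that rose in the wild-type line 4494 also rose in the menin-null line (89.0% of the wild-type and 85.5% of the menin-null genes), and of those that fell 5721 also fell (89.0% and 87.1%). In 21 and 31 genes the calls were opposite. Fabp7 rose by 8.35, Col3a1 by 8.30 and Gpm6a by 8.37 in the menin-null line, close to the wild-type values, and Pou5f1 fell by 5.57. The difference between the lines was tested as an interaction, and 557 genes passed (3.06%), with the wild-type difference above the menin-null one in 285 (1.57%) and below it in 272 (1.5%). This count changed with every array left out, and each such fit leaves 1 array in a group. Leaving out wild-type mESC array 1 or 2 made it 66 or 75, and leaving out wild-type PILEC array 1 or 2 made it 72 or 75. For the menin-null arrays it became 245 or 209 (PILEC array 1 or 2) and 618 or 800 (mESC array 1 or 2). Before adjustment, 3409 genes had an interaction p under 0.05.

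**Figure D5:**
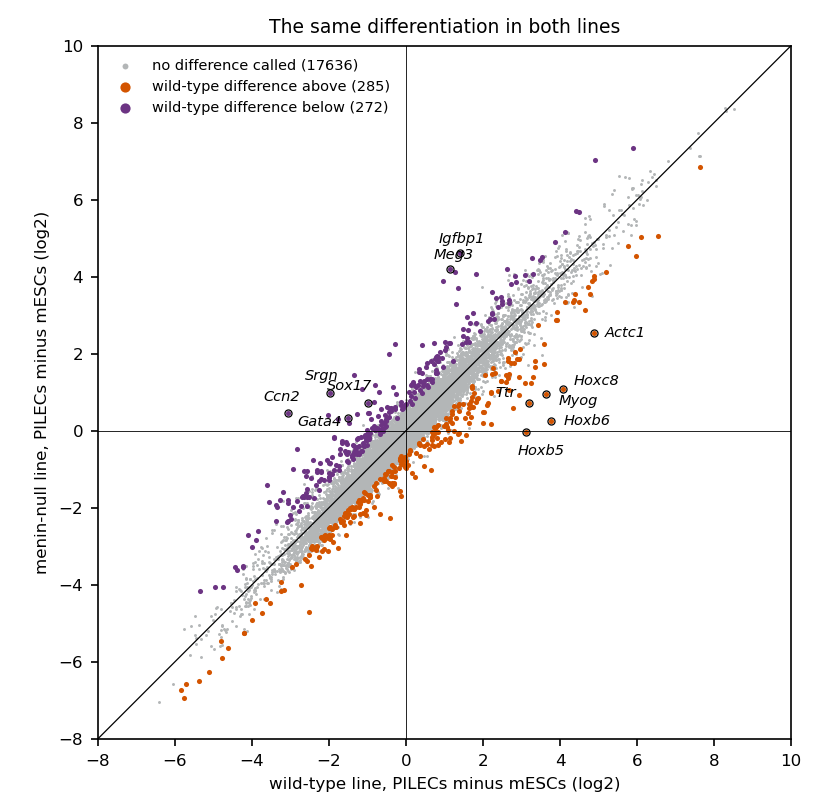
Log2 difference between PILECs and mESCs in the wild-type line (horizontal axis) and in the menin-null line (vertical axis) for 18193 genes, with equal values on the diagonal. Colours mark genes whose differences were called unlike, 285 above and 272 below in the wild-type line, among them Hox genes to the right of the diagonal and Meg3 and Igfbp1 above it.

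The 6 largest of these differences were of Ccn2, Hoxb6, Igfbp1, Hoxb5, Meg3 and Hoxc8. Hoxb6 rose by 3.77 in the wild-type line and differed by 0.26 in the menin-null line, where PILECs were 5.45 and 5.57 (difference between lines 3.50, SE 0.242, adjusted p = 0.00138). Hoxc8 rose by 4.08 and 1.09, and Hoxb5 by 3.11 in the wild-type line with -0.03 in the other. Of the 33 Hox genes 14 had a higher wild-type difference and 0 a lower one, and the count was 4 or 5 without any 1 of the 4 wild-type arrays, 9 and 7 without menin-null PILEC array 1 or 2 and 12 and 18 without menin-null mESC array 1 or 2. The list was chosen with earlier results of these arrays known, so its direction is no independent evidence. Hoxb5 lost its own call without either wild-type mESC array (adjusted p = 0.052 and 0.0538). Meg3 rose by 1.16 in the wild-type line and by 4.19 in the menin-null line, where mESCs started at 9.93 and 9.98 rather than 12.94 and 12.90, and PILECs of the lines ended alike at 14.06 and 14.10 against 14.17 and 14.12. Of 31 imprinted genes 2 had a higher and 9 a lower wild-type difference (5 to 10 lower with single arrays left out).

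Lists of other lineages differed as well. Of 28 striated muscle genes 11 had a higher wild-type difference and 0 a lower one, such as Myog (3.64 against 0.95) and Actc1 (4.88 against 2.55). Leaving out wild-type mESC array 1 or 2 made it 3 or 4, and leaving out wild-type PILEC array 1 or 2 made it 5 or 1. In the menin-null line, leaving out PILEC array 1 or 2 made it 12 or 4, and leaving out mESC array 1 or 2 made it 10 or 13. Of 15 genes of parietal endoderm and basement membrane 8 had a lower wild-type difference. Lama1 fell by 1.36 in the wild-type line and rose by 1.44 in the menin-null line, and Srgn fell by 1.97 and rose by 0.98. The count was 4 or 5 without a wild-type array and 7 or 8 without a menin-null one. Of 11 endoderm transcription factors 5 had a lower wild-type difference (2 or 3 without a wild-type array), with Gata4 at -1.51 against 0.33 and Sox17 at -0.97 against 0.73. Of 17 genes of trophectoderm and epithelium 6 had a lower one (3 or 4 without a wild-type array), such as Krt18, which fell by 3.56 and 1.85. Igfbp1 rose by 1.40 against 4.62, and Ccn2 fell by 3.05 against a difference of 0.46. Islet hormones and islet transcription factors held no gene whose difference between the lines passed. Each genotype is 1 line, so genotype and line cannot be told apart here.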

How the data were processed

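Log2 signals per probe set, which the authors deposited in the series table, were used as given. For their making, RMA and Partek stand in the notes of the submitters and Affymetrix Microarray Analysis Suite in the published methods, and which of them gave these values is unsettled, with settings not given in the sources used here. The values were not normalised again, since another summary of the probes would move dim genes most. Of 45101 probe sets, 64 were controls, 9160 had no gene symbol and 932 had several. The other 34945 were named by the platform annotation (34741 matched the RefSeq table of GRCm38.p6 by Entrez identifier), and the probe set with the highest mean over all 8 arrays stood for each of 18193 genes.

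A model with 4 group means was fitted to all 8 arrays with limma 3.58.1 (lmFit and eBayes, R 4.3.3), with Benjamini-Hochberg adjustment over the 18193 genes and a threshold of 0.05. The spread had 4 residual and 3.72 prior degrees of freedom. Groups followed the sample labels. With 2 arrays against 2, an exact permutation test of 1 gene cannot go below p = 0.333. No batch is named in the labels. Figures were drawn with matplotlib 3.10.9.

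The genes compared and the 50 gene lists named in the results were chosen with earlier results of these data known. Genes were named by rule: the study's own markers, the 12 largest rises and falls among called genes with a mean of at least 7 in the higher group, up to 4 called genes per list by size of difference, and the 6 largest differences between lines. Other named genes were chosen after their values were seen. Promoter windows are the 250 bases before a transcript's start, and none on chromosome 18 was shown. The steps were tested on simulated data. Alternatives covered normalisation and choice of probe set (without those whose names end in s or x, chosen after seeing the data). Others were a filter on dim genes, variance moderation, a replicate block, the study's fold threshold, the wild-type arrays alone and leaving out each array.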

Additional observations from a re-analysis of the deposited data

Results flagged for a closer look

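For 59 of the genes named here the PILEC minus mESC difference was unlike in the wild-type and the menin-null line by the interaction test of limma (adjusted p under 0.05). The value given is the wild-type difference minus the menin-null one on the log2 scale, and 34 were positive and 25 negative. Over all tested genes 3.06% passed this test. Some of the genes named were chosen by this difference or after their values were seen, so the count says nothing about them as a set. The count of genes passing this test changed with every array left out, as given in the results. The calls of many such genes are therefore uncertain, and what lies behind these differences was not tested.

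Among Hox genes and cofactors the values were Hoxb6 (3.50), Hoxb5 (3.14), Hoxc8 (2.99), Hoxb2 (2.18), Hoxa2 (0.97) and Meis1 (1.15). Among genes of muscle and adipocytes they were Myog (2.69), Actc1 (2.33), Myh3 (2.01), Myl4 (1.86), Myl1 (1.52) and Adipoq (2.04). Neural and regional genes with a larger wild-type rise were Ebf3 (1.47), Lhx2 (1.24), Id4 (0.97), Zic1 (0.80) and Tubb3 (0.69). Eomes of the mesendoderm list had a value of 1.0. Ttr had a value of 2.47, and the stress and signalling genes were Adm (0.84), Ddit4 (0.76) and Sfrp2 (0.75).

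Some positive values belong to genes that fell less in the wild-type line than in the menin-null line. The stem cell genes of this kind were Nr0b1 (1.17), Zfp42 (1.05), Dppa5a (1.04), Nanog (1.01), Tcl1 (1.0), Dppa2 (0.90), L1td1 (0.87) and Igf2bp1 (0.69), and the others were Id1 (1.13), Cdc6 (0.70), Sdf2l1 (0.68) and Kif20a (0.57).

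Negative values of genes that fell in the wild-type line were those of Thy1 (-0.62), Cldn7 (-0.68), Igf2r (-0.90), Grhl2 (-0.99), Cubn (-1.02), Mael (-1.20), Krt19 (-1.31), Lamc1 (-1.44), Lamb1 (-1.58), Sox17 (-1.70), Krt18 (-1.71), Gata4 (-1.84), Lama1 (-2.80), Srgn (-2.95) and Ccn2 (-3.50). Of these, Igf2r, Lamc1, Lamb1, Lama1, Sox17, Gata4, Srgn and Ccn2 had a positive difference in the menin-null line. Negative values of genes that rose less in the wild-type line were those of Foxa2 (-0.94), Jun (-0.96), Gfap (-1.15), Nnat (-1.46), Dlk1 (-1.58), Col4a1 (-1.99), Plagl1 (-2.13), Col4a2 (-2.35), Meg3 (-3.03) and Igfbp1 (-3.21).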

How the results depend on the processing

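The counts of genes that rose (5049) and fell (6428) stayed within 1.5 times under all alternatives but the study's threshold of a 2-fold change with an unadjusted p under 0.005, which gave 2433 and 3092 because it adds a fold limit. With single arrays left out they ran from 4440 to 5248 and from 5648 to 6754. The count of genes that differed between the lines (557) was less stable. It was 875 with dim genes left out, 1402 with a trend and robust moderation, 47 without moderation and 248 at the study's threshold, and 66 to 800 with single arrays left out. With a replicate block it was 286, and the counts of rises and falls were 4951 and 6304. The replicate numbers do not pair the cultures by any source, and the deviations of same-numbered wild-type mESC and PILEC arrays correlated at 0.0641.

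Of the counts over lists 1607 were alike, 61 lower and 32 higher by more than 1.5 times. Of 343 single-gene differences 301 kept their side of the threshold, and their direction where called, under every alternative run, 19 lost and 16 gained the call under at least 1, and 8 turned. Pax4, Ghrl, Myf5, Ptf1a and Tex101 each gained the call without 1 array. On these arrays probe sets with names ending in s or x can share probes with other sequences, and those ending in a read several transcripts of a gene. Without all 3 kinds the difference was -0.31 for Iapp, 0.88 for Tpm2, -0.0376 for Fabp4, -0.0337 for Aldoc, 0.55 for Ezh1, -0.72 for Xbp1 and 2.41 for Lss, each read by another probe set. Leaving out those in s or x alone, an alternative chosen after seeing the data, turned Lss (2.41) only. With the mean of all probe sets of a gene it was 0.0341 for Tpm2, 0.38 for Lss, -0.28 for Xbp1 and 0.47 for Eif2s3y. The median of the islet hormones was -0.02 with that mean, -0.31 without sets in s, x or a and -0.06 without those in s or x. Medians also turned under 1 or 2 alternatives for mesendoderm, exocrine and duct pancreas, endoderm factors, liver and visceral endoderm, endothelium and blood, Polycomb, glycolysis and Y-linked genes. With 2 arrays a group, small differences of dim genes are the least certain.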

Other observations

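Among genes with a mean of at least 7 in a group, those on chromosome 11 (984 genes) had a median PILEC minus mESC difference of 0.14 in the wild-type line and 0.13 in the menin-null line. The X chromosome had a median of 0.07 in the wild-type line, and the other autosomes lay between -0.27 and -0.09. On chromosome 11, 450 genes rose and 346 fell in the wild-type line, whereas on chromosome 2, 336 rose and 432 fell. Neighbouring genes are not independent, and no test was made of these medians.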
